A study of Mus musculus with 30 samples.

Results

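The metallothionein and zinc transporter genes described here are *Mt1*, *Mt2*, *Slc30a1*, *Slc30a2*, *Slc39a1*, *Slc39a4*, *Slc39a5*, *Slc39a8*, *Slc39a10* and *Slc39a14*. These 10 genes were taken by symbol from the kidney and gastrocnemius count tables, which list 54838 and 55487 genes, and each was found in both tables. Low counts were filtered before testing, which kept 10 of the 10 genes among 17120 in kidney and 8 of the 10 among 15419 in gastrocnemius. *Slc39a4* and *Slc39a5* were the members left untested in gastrocnemius. The libraries came from kidney and gastrocnemius, a calf muscle, of male wild-type C57BL/6J mice moved to thermoneutral housing (30 to 32 °C) at 6 weeks of age. From Week 7 to Week 24 the mice had a control diet with water by gavage (CD), a western diet rich in fat and sucrose with water by gavage (WD), or the western diet with CHP at 20 mg/kg by gavage 3 times per week (WD + CHP), and all were fasted for 3 h before euthanasia. CHP stands for cyclo(His-Pro), a ring-shaped dipeptide. The 30 libraries were made from 1 mouse each, 5 for every group and tissue. The study lists 24 mice of this age, fewer than the 30 libraries, so some animals gave both tissues, but which ones is not stated. All values below are CPM, the counts of a gene relative to the total of its library, with TMM-scaled library sizes, given in the order of replicates 1 to 5, unless RPKM (CPM per kilobase of exon) is named. Differences between groups are log2 fold changes with their standard error (SE), and a gene is said to pass or to be called at an adjusted p under 0.05.

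Zinc inside a cell is kept within a narrow range by proteins of these families. Metallothioneins are small cysteine-rich proteins that bind zinc, copper and cadmium, and zinc induces *Mt1* and *Mt2* through the metal-responsive transcription factor MTF-1, which binds metal response elements in their promoters. Transporters of the SLC30 (ZnT) family move zinc out of the cytosol, either across the plasma membrane or into vesicles, and those of the SLC39 (ZIP) family move zinc and in some cases manganese, iron or cadmium into the cytosol. The kidney filters and reclaims zinc, and metallothionein is abundant in its tubules. Skeletal muscle holds much of the zinc of the body.

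*Mt1* and *Mt2* are neighbours on mouse chromosome 8, and RefSeq promoter windows (GRCm38.p6, 250 bases before to 50 bases after a transcript start) were found for 8 of the 10 members, 11 windows in all, but not for *Slc39a4* and *Slc39a14*. The windows were searched on both strands for 2 versions of the metal response element core, TGCACNC and TGCGCNC, which cannot match at the same position. *Mt2* had 4 matches, *Mt1* 3, *Slc30a1* and *Slc30a2* 2 each, *Slc39a5* and *Slc39a8* 1 each in 1 of their 2 windows, and *Slc39a1* and *Slc39a10* had none. Of all 32851 windows, 25.7% held at least 1 match, 7.11% at least 2 and 1.97% at least 3. The stretches from 250 to 16 bases before the start are shown for the genes of this group that are the textbook targets of MTF-1, 5′ to 3′ on the + strand, with the matched core in capitals. They lie at chr8:94178839-94179073 (*Mt1*), chr8:94172368-94172602 (*Mt2*) and chr1:191906531-191906765 (*Slc30a1*).
Mt1: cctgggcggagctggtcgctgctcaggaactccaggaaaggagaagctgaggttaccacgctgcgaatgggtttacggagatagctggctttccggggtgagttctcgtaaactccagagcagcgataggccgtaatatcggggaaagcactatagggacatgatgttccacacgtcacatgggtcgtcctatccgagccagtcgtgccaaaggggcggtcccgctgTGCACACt
Mt2: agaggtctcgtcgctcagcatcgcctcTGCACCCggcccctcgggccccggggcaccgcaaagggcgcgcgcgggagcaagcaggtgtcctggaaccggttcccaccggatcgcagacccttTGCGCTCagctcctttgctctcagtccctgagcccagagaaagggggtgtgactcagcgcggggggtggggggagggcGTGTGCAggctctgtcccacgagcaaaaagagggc
Slc30a1: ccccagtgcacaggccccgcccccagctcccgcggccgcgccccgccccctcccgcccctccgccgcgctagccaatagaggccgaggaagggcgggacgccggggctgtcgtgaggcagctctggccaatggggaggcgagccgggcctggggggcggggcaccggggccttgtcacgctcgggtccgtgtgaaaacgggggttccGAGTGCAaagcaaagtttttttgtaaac
The *Mt1* stretch holds 1 match, 23 bases before the start, and the other 2 matches of its window lie after the RefSeq start. The *Mt2* stretch holds 3 matches, 223, 128 and 50 bases before the start, of which the last is on the opposite strand. The *Slc30a1* stretch holds 1 match on the opposite strand, 43 bases before the start. A match describes the letters only, and no binding was measured. Positions depend on the RefSeq start used, and sequence outside the windows was not searched, so the matches do not count all elements of a gene.

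The total count of a library lay between 37189192 and 38211422 in kidney and between 50319024 and 53282969 in gastrocnemius. All 7 proximal tubule markers averaged at least 10 counts in kidney and 0 of 7 did in gastrocnemius, whereas all 8 fast fibre markers did in gastrocnemius and 2 of 8 in kidney. Libraries that stood apart bear on the results below. WD replicate 5 of gastrocnemius had the highest *Mt1* and *Mt2* of that tissue. WD replicate 5 of kidney had 896 summed CPM of 8 hepatocyte markers, against 166 to 334 in the other 14 kidney libraries, and the highest *Slc39a4*. The 8 adipocyte markers of gastrocnemius summed to 46.3 to 85.4 CPM in CD, 80.4 to 93.9 in WD and 32.8 to 58.6 in WD + CHP, so they differed between WD and WD + CHP without overlap. In whole tissue, fewer cells of a type and less RNA per cell cannot be told apart.

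Of the 8 genes that passed the filter in both tissues, 6 were higher in kidney on CD and 2, *Mt2* and *Slc30a1*, were higher in gastrocnemius, and 8 of 8 passed the test between the 5 kidney and 5 gastrocnemius libraries (edgeR quasi-likelihood test, adjusted p at most 5.7e-04, where 88.1% of all genes passed, 45.9% higher and 42.2% lower in kidney). *Slc39a4* and *Slc39a5* were kept in that fit through their kidney counts alone, so they had to differ, and their levels are given without a test. The labels name a different extraction kit for each tissue, whereas the methods of the study name the same kit for both. If the labels are right, the tissue cannot be told apart from the kit. With both tissues on 1 scale, kidney *Mt1* was the highest member per length at 34.8 ± 4.43 RPKM (SD, n = 5), followed by *Slc39a1* at 24.2 ± 0.633, *Slc30a2* at 12.4 ± 1.88, *Slc39a8* at 9.81 ± 1.06, *Slc39a5* at 9.14 ± 0.463, *Slc39a10* at 4.81 ± 0.683, *Slc39a14* at 3.18 ± 0.131, *Mt2* at 0.596 ± 0.152, *Slc30a1* at 0.165 ± 0.0261 and *Slc39a4* at 0.111 ± 0.0371. The libraries of *Slc39a8* and *Slc39a5* overlapped in this order, as did those of *Slc30a2* and *Slc39a8*, and those of *Slc30a1* and *Slc39a4*. In gastrocnemius the order began with *Slc39a1* at 20.9 ± 1.03 RPKM and *Slc30a2* at 6.26 ± 1.91, followed by *Mt1* at 3.25 ± 0.50, *Mt2* at 2.84 ± 0.743, *Slc30a1* at 1.96 ± 0.259, *Slc39a14* at 1.74 ± 0.119, *Slc39a10* at 1.66 ± 0.275 and *Slc39a8* at 0.126 ± 0.0437. *Slc30a2*, *Mt1*, *Mt2*, *Slc30a1* and *Slc39a14* each overlapped with the next gene in that order. The annotated exons of *Mt1* merge into 1 block of 1246 bases, so its value per length is lower than it would be over a shorter transcript.

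**Figure D1:**
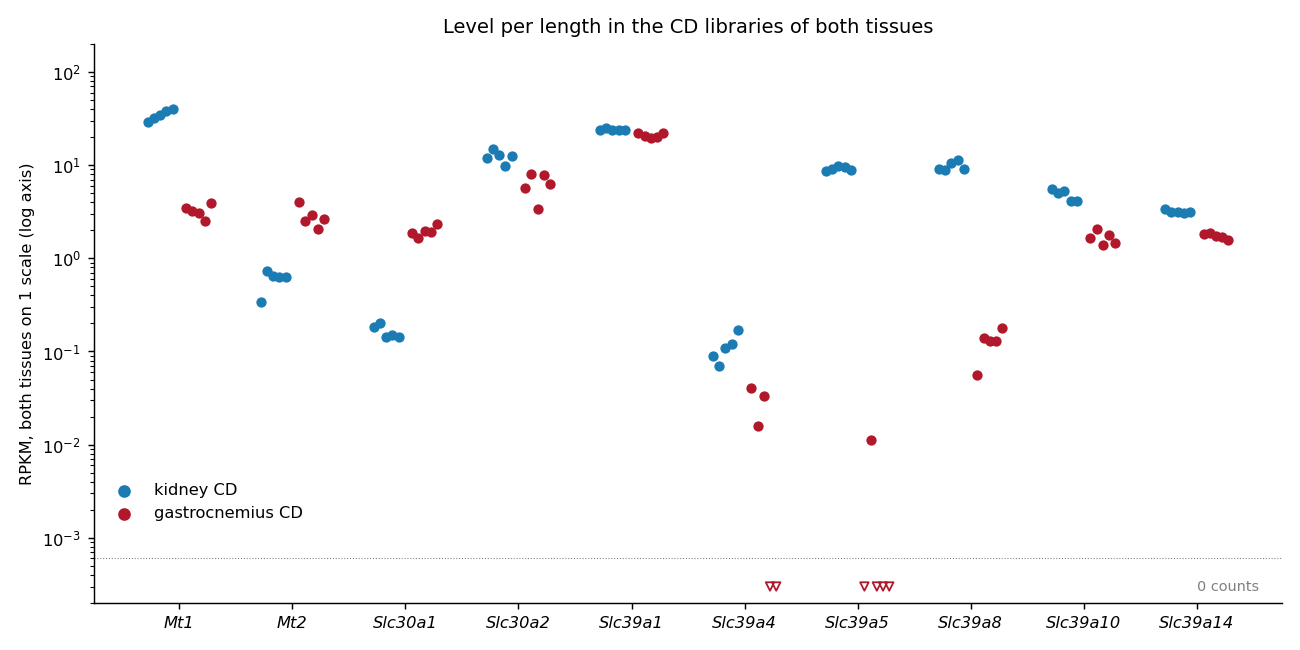
Level per length of each gene in the 5 kidney and 5 gastrocnemius CD libraries, in RPKM on a log axis with both tissues on 1 scale; each point is a library and open triangles mark libraries with 0 counts. *Mt1* is higher in kidney, *Mt2* and *Slc30a1* are higher in gastrocnemius, and *Slc39a5* has 1 read in all 5 gastrocnemius libraries.

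Of the 8 genes tested in both tissues, the ZIP importer *Slc39a8* differed most and the ZIP importer *Slc39a1* least. *Slc39a5* held 967 to 1086 counts in each kidney CD library and 1 count in the 5 gastrocnemius CD libraries together, a ratio of 3994 with a 95% counting interval of 717 to 157739. *Slc39a4* held 11 to 27 counts in each kidney CD library and 0 to 5 in each gastrocnemius CD library, 88 against 11 in all, and its gastrocnemius mean lay below the value of 3 counts in a library. *Slc39a8* was higher in kidney by a log2 fold change of 6.28 (SE 0.17), *Mt1* by 3.42 (SE 0.12), *Slc39a10* by 1.53 (SE 0.12), *Slc30a2* by 0.99 (SE 0.19), *Slc39a14* by 0.87 (SE 0.05) and *Slc39a1* by 0.21 (SE 0.04). The kidney minus gastrocnemius log2 difference was -2.25 (SE 0.24) for *Mt2* and -3.57 (SE 0.13) for *Slc30a1*. The pair of metallothioneins was therefore split, with 92.3 to 396 *Mt1* reads per *Mt2* read in the kidney libraries of all groups and 1.61 to 3.36 in gastrocnemius. The size of these differences depends on the scaling, since the median log2 difference of all genes was 0.08 with TMM and 0.92 with total counts, but each direction and call of the 8 genes was kept with total counts, where *Slc39a1* differed by 1.04, *Mt2* by -1.41 and *Slc30a1* by -2.73.

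Among the metallothioneins, *Mt1* (chr8:94179082-94180327, + strand, GRCm38 with GENCODE M21) was the abundant form in kidney. Its kidney CPM was 47.8, 52.7, 55.8, 63.4 and 65.2 in CD, 41.7, 50.5, 51.0, 52.8 and 58.2 in WD and 46.1, 46.0, 54.4, 50.6 and 56.7 in WD + CHP. The groups overlapped, and the CD libraries reached the highest values. WD and CD differed by -0.16 (SE 0.09, adjusted p = 0.288), WD + CHP and WD by -0.00 (95% interval -0.20 to 0.19, adjusted p = 0.995), and neither passed the edgeR test. WD + CHP and CD differed by -0.17 (adjusted p = 0.264). *Mt2* (chr8:94172664-94173568, + strand) was near the limit of detection in kidney, with 4 to 22 counts per library. Its CPM was 0.262, 0.571, 0.497, 0.490 and 0.483 in CD, 0.106, 0.504, 0.298, 0.264 and 0.258 in WD and 0.157, 0.274, 0.278, 0.333 and 0.271 in WD + CHP. Most CD libraries lay above the libraries of both western diet groups, but CD replicate 1 and WD replicate 2 crossed over. *Mt2* differed by -0.68 (SE 0.30, adjusted p = 0.165) between WD and CD and by -0.81 (SE 0.31, adjusted p = 0.0960) between WD + CHP and CD. The summed fast fibre markers, of which 2 of 8 were detected in kidney, had an r of -0.69 with *Mt2*, and their part in the result was not tested. *Mt2* shares 432 of its 588 exonic bases with *Gm45774* on the opposite strand, which had 0 to 12 counts per library, and the strand setting of the counting is not given in the sources used here, so reads of the pair cannot be told apart. *Mt1* overlaps no other gene. The level of *Mt2* and the ratios of *Mt1* to *Mt2* reads given above share this limit, since *Mt2* may be counted too low or too high.

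**Figure D2:**
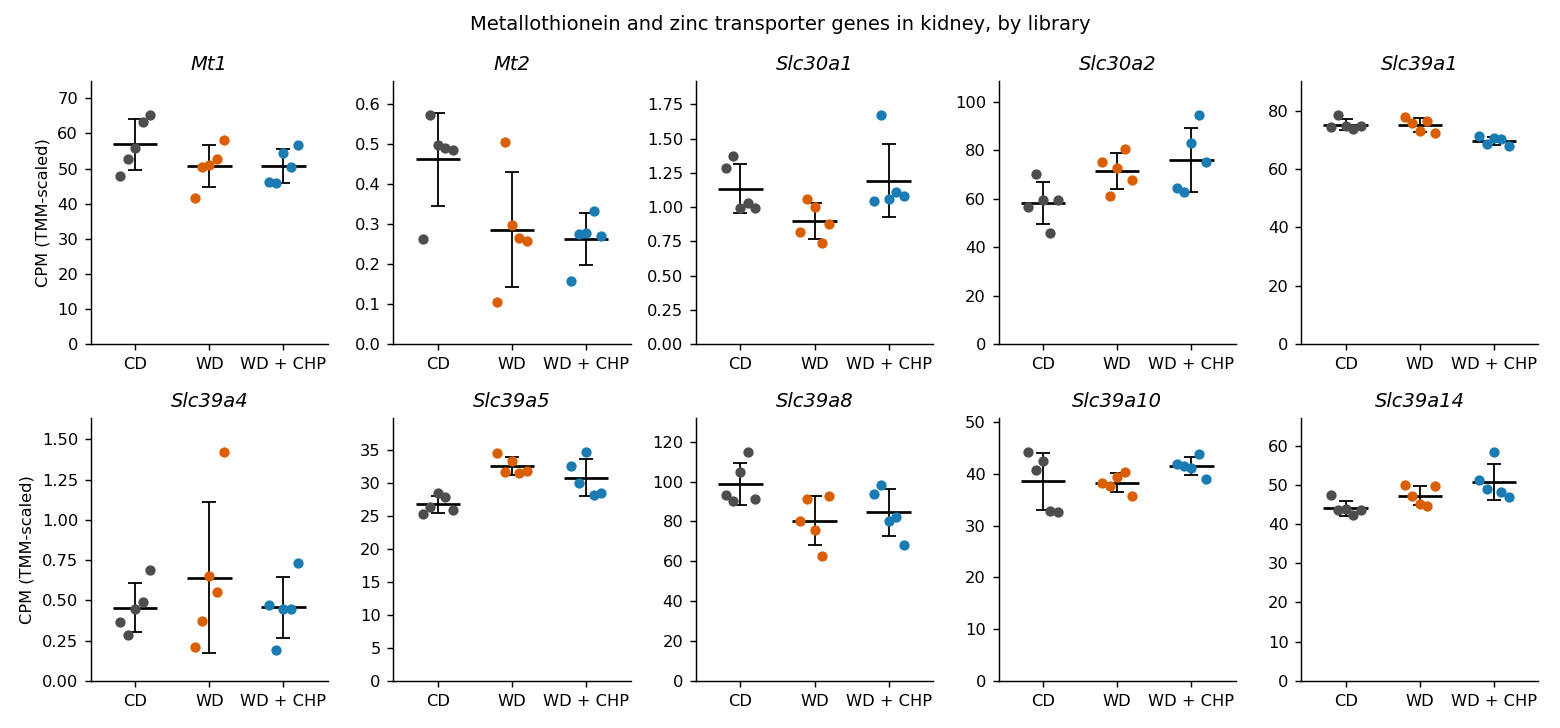
CPM of the 10 genes in kidney by group; points are the 5 libraries of a group, the horizontal line is the mean and the bar 1 SD. *Slc39a5* lies at 25.3 to 28.4 CPM in CD and 31.5 to 34.6 in WD, and *Slc39a1* at 68.0 to 71.1 in WD + CHP against 72.5 to 78.4 in the other groups.

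In gastrocnemius the means of both metallothioneins were highest in WD, with a wide spread and no difference past the threshold. *Mt1* was 3.31, 3.08, 2.94, 2.40 and 3.71 in CD, 3.64, 3.91, 3.45, 3.47 and 10.2 in WD and 3.02, 4.48, 5.84, 4.06 and 2.86 in WD + CHP. *Mt2* was 1.82, 1.12, 1.32, 0.936 and 1.19 in CD, 1.77, 2.43, 1.39, 1.75 and 5.70 in WD and 1.21, 1.33, 2.65, 2.35 and 1.3 in WD + CHP. The same library, WD replicate 5, was the highest of the 15 for both genes, and the groups overlapped. WD exceeded CD by 0.68 (SE 0.29, adjusted p = 0.159) for *Mt1* and by 1.03 (SE 0.35, adjusted p = 0.0826) for *Mt2*, neither of which passed, although DESeq2 called *Mt2* (adjusted p = 0.0270). WD + CHP differed from WD by -0.28 (SE 0.28, adjusted p = 0.734) for *Mt1* and -0.56 (SE 0.34, adjusted p = 0.548) for *Mt2*. Without WD replicate 5, *Mt1* differed by 0.23 between WD and CD (adjusted p = 0.477) and by 0.16 between WD + CHP and WD (adjusted p = 0.703), and *Mt2* by 0.52 (adjusted p = 0.233) and -0.05 (adjusted p = 0.944). The adipocyte markers were also highest in WD, with an r over the 15 libraries of 0.21 with *Mt1* and 0.29 with *Mt2*. The 8 fast fibre markers summed to 182881 to 218600 CPM in CD, 159329 to 186235 in WD and 170918 to 193744 in WD + CHP, with an r of -0.59 with *Mt1* and -0.52 with *Mt2*, and their part in the result was not tested. With the adipocyte score as a covariate *Mt1* differed by -0.32 between WD and CD (adjusted p = 0.884) and *Mt2* by 0.07 (adjusted p = 0.987), and 0 genes of any kind were called between WD and CD in that fit against 1330 without the covariate.

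**Figure D3:**
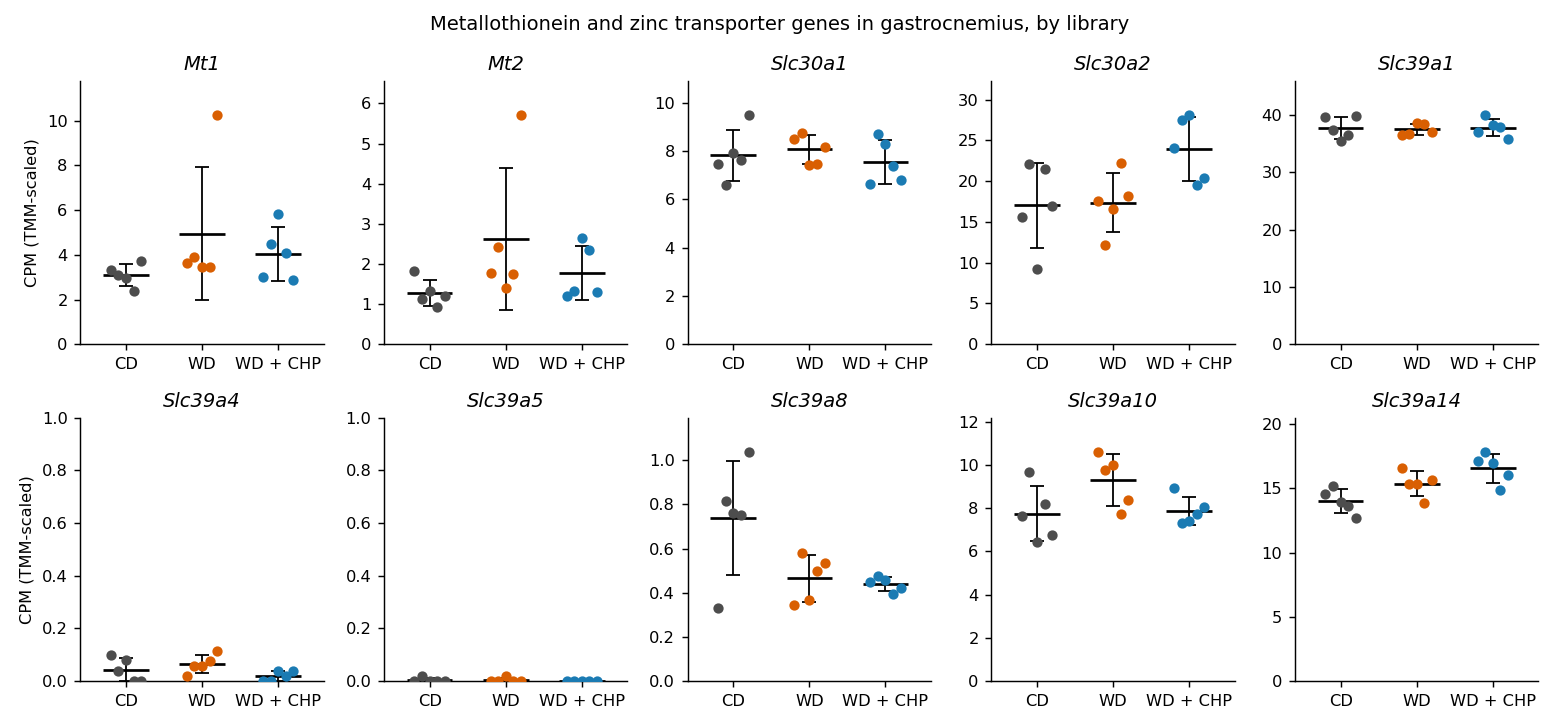
CPM of the 10 genes in gastrocnemius by group, drawn as for kidney; *Slc39a4* (0 to 6 counts) and *Slc39a5* (0 to 1 count) were not tested. WD replicate 5 reaches 10.2 CPM of *Mt1*, while the other WD libraries lie between 3.45 and 3.91.

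The fitted difference between WD and CD in *Mt2* was negative in kidney and positive in gastrocnemius. The kidney effect minus the gastrocnemius effect was -1.70 (SE 0.53, 95% interval -2.79 to -0.62) for *Mt2* in the fit of all 30 libraries (edgeR), with an adjusted p of 0.0645, and -0.84 (SE 0.30, adjusted p = 0.117) for *Mt1*. Neither passed, in a test that called 4.13% of all genes. That fit took the 30 libraries as independent, although some mice gave both tissues. *Mt2* passed when kidney WD replicate 2 or gastrocnemius CD replicate 1, WD replicate 3 or WD replicate 4 was left out (adjusted p 0.0390 to 0.0491), and with total count scaling (adjusted p = 0.0361). Without gastrocnemius WD replicate 5 the *Mt2* difference was -1.21 (adjusted p = 0.108).

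Of the ZnT exporters, *Slc30a1* (chr1:191906767-191913247, + strand) encodes ZnT1, the zinc exporter of the plasma membrane, and was a low gene in kidney. Its kidney CPM was 1.28, 1.37, 0.994, 1.03 and 0.992 in CD, 0.818, 1.06, 1.00, 0.739 and 0.879 in WD and 1.04, 1.67, 1.06, 1.11 and 1.08 in WD + CHP, on 28 to 61 counts. WD libraries were the lowest on average, and WD + CHP replicate 2 stood above all others. WD + CHP exceeded WD by 0.41 (SE 0.17, unadjusted p = 0.0279), which did not pass the edgeR test after adjustment (adjusted p = 0.366) and was 0.26 without WD + CHP replicate 2. In gastrocnemius *Slc30a1* was 7.49, 6.60, 7.93, 7.65 and 9.49 in CD, 8.52, 8.76, 7.44, 7.46 and 8.19 in WD and 6.63, 8.71, 8.30, 7.40 and 6.79 in WD + CHP, and the 3 groups overlapped. *Slc30a1* shares 468 of 5244 exonic bases with *1700034H15Rik* on the opposite strand, which had 0 to 16 counts per library.

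*Slc30a2* (chr4:134343181-134354484, + strand) encodes ZnT2, which loads zinc into vesicles and is known from secretory epithelia. In kidney it was 56.6, 70.3, 59.2, 46.0 and 59.4 in CD, 74.9, 61.1, 72.5, 80.5 and 67.8 in WD and 64.4, 62.8, 83.1, 94.3 and 75.2 in WD + CHP. Both western diet groups lay higher than CD with overlap. The log2 difference was 0.29 between WD and CD (SE 0.12, adjusted p = 0.121), 0.09 between WD + CHP and WD (95% interval -0.15 to 0.33) and 0.38 between WD + CHP and CD (SE 0.12, adjusted p = 0.0400, edgeR), and only the last passed. That call held in 3 of 10 fits that left out 1 library, and was lost without CD replicates 1, 3, 4 or 5 or WD + CHP replicates 3, 4 or 5 (adjusted p 0.0560 to 0.113). It was also lost with total count scaling (adjusted p = 0.0527), with only the groups compared (0.0639) and with adipocyte score added as covariate (0.0508, edgeR in each). The 7 proximal tubule markers summed to 11804 to 12955 CPM in CD, 12266 to 13108 in WD and 12108 to 13996 in WD + CHP (r with *Slc30a2* 0.75). The fast fibre markers, of which 2 of 8 were detected in kidney, summed to 16.5 to 18.4 CPM in CD, 21.6 to 27.6 in WD and 21.2 to 27.8 in WD + CHP, so that CD did not overlap with either western diet group (r = 0.54), and the slow fibre markers, of which 1 of 5 was detected, had an r of 0.57. The adrenal cortex markers had an r of -0.57. The part of these lists in the result was not tested. In gastrocnemius *Slc30a2* was 15.6, 22.1, 9.19, 21.5 and 17.0 in CD, 17.6, 12.2, 16.6, 22.2 and 18.2 in WD and 24.1, 27.5, 28.1, 19.6 and 20.3 in WD + CHP. The WD + CHP libraries reached the highest values and overlapped with both other groups. WD + CHP exceeded WD by 0.46 (SE 0.19, unadjusted p = 0.0305, adjusted p = 0.339) and CD by 0.49 (SE 0.19, adjusted p = 0.126), and neither passed.

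*Slc39a5* was the only member called between WD and CD in kidney. *Slc39a5* (chr10:128395931-128401229, - strand) encodes ZIP5, a zinc importer of the basolateral membrane of polarised epithelia. Its kidney CPM was 25.3, 26.4, 28.4, 27.8 and 25.9 in CD, 34.6, 31.7, 33.3, 31.5 and 31.7 in WD and 32.6, 30.0, 34.7, 28.1 and 28.5 in WD + CHP. Each WD library lay above each CD library, and the WD + CHP libraries spanned the gap between them. The fast fibre list given above for kidney, with 2 of 8 genes detected and a lower sum in all CD libraries than in the western diet groups, had an r of 0.74 with *Slc39a5*. The 4 fibroblast markers summed to 69.5 to 97.1, 84.3 to 98.3 and 68.9 to 93.2 (r = 0.56). The adrenal cortex markers, of which 1 of 4 was detected, summed to 4.91 to 5.76 CPM in CD, 4.21 to 4.93 in WD and 4.17 to 5.04 in WD + CHP (r = -0.58), and the part of these 3 lists was not tested. *Slc39a5* rose by 0.28 in WD, which is 1.22-fold (SE 0.06 on the log2 scale, 95% interval 0.16 to 0.40, adjusted p = 0.00528, edgeR), against a background of 9.65% of all genes called and 8.7% with groups that did not overlap. That call held in 10 of 10 fits that left out 1 library and in 12 of 12 other settings. WD + CHP differed from WD by -0.08 (95% interval -0.20 to 0.04, adjusted p = 0.624) and exceeded CD by 0.20 (SE 0.06, adjusted p = 0.0287), a call that was lost without CD replicate 1, CD replicate 5 or WD + CHP replicate 3 (adjusted p 0.0559 to 0.0730), with total count scaling (0.0903) and with only the groups compared (0.0566, edgeR in each). In gastrocnemius *Slc39a5* had 1 count in 2 of 15 libraries and 0 in the others, where 0 counts allow up to 3 counts per library (intervals and this floor cover counting error only).

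*Slc39a14* was the member called in both tissues. *Slc39a14* (chr14:70303469-70351425, - strand) encodes ZIP14, an importer of zinc, manganese and iron that is induced in inflammation. In kidney it was 47.3, 43.5, 43.7, 42.3 and 43.5 in CD, 49.9, 47.2, 45, 44.5 and 49.6 in WD and 51.1, 49.0, 58.3, 48.2 and 46.9 in WD + CHP. In gastrocnemius it was 14.6, 15.2, 14, 13.7 and 12.7 in CD, 16.6, 15.4, 15.4, 13.9 and 15.7 in WD and 17.1, 17.8, 16.9, 14.9 and 16.0 in WD + CHP. In each tissue CD had the lowest mean and WD + CHP the highest, and the groups overlapped. *Slc39a14* rose between CD and WD + CHP by 0.20 in kidney (SE 0.06, adjusted p = 0.0271) and by 0.24 in gastrocnemius (SE 0.06, adjusted p = 0.0232, edgeR in each). The steps from CD to WD (0.10 in kidney, adjusted p = 0.280; 0.13 in gastrocnemius, adjusted p = 0.206) and from WD to WD + CHP (0.10, adjusted p = 0.520; 0.11, adjusted p = 0.513) did not pass. The kidney call was lost without WD + CHP replicate 3 (adjusted p = 0.0562) and with total count scaling (adjusted p = 0.0787), and the gastrocnemius call without CD replicate 3, CD replicate 5, WD + CHP replicate 2 or WD + CHP replicate 3 (adjusted p 0.0514 to 0.0650) and with the adipocyte score as a covariate (0.19, adjusted p = 0.135). In gastrocnemius *Slc39a14* had an r of -0.61 with the summed fast fibre markers and 0.85 with the podocyte list, of which 1 of 3 genes was detected and which summed to 59.1 to 72.4 CPM in CD, 74.6 to 88.0 in WD and 79.8 to 91.1 in WD + CHP. In kidney its r was 0.53 with the fast fibre list, of which 2 of 8 genes were detected there, and 0.43 with the slow fibre list, of which 1 of 5 was. The part of these lists in the results was not tested.

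*Slc39a1* (chr3:90248172-90253612, + strand) encodes ZIP1, a broadly expressed importer, and varied least of the members. In kidney it was 74.5, 78.4, 74.6, 73.7 and 74.7 in CD, 77.7, 75.6, 73.0, 76.5 and 72.5 in WD and 71.1, 68.5, 70.5, 70.4 and 68.0 in WD + CHP, with a coefficient of variation of 1.98% to 2.99% within groups. The WD + CHP libraries lay below all libraries of both other groups. *Slc39a1* differed by -0.11 between WD + CHP and WD (SE 0.03, unadjusted p = 0.00410), which did not pass after adjustment (adjusted p = 0.193), where 2.36% of all genes had groups without overlap. It fell by 0.11 between CD and WD + CHP (SE 0.03, adjusted p = 0.0367, edgeR), a call that was lost in 10 of 10 fits that left out 1 library (adjusted p 0.0571 to 0.126). It was also lost without the filter (adjusted p = 0.161), with the length and GC correction (0.0993) and with only the groups compared (0.0635, edgeR in each). The 4 endothelial markers summed to 228 to 261 CPM in CD, 238 to 266 in WD and 216 to 245 in WD + CHP (r with *Slc39a1* 0.55), and their part in the result was not tested. In gastrocnemius *Slc39a1* was 35.5 to 39.9 in CD, 36.6 to 38.6 in WD and 35.9 to 40.0 in WD + CHP, and the difference between WD + CHP and CD was 0.00 (95% interval -0.09 to 0.09).

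*Slc39a8* (chr3:135825279-135888572, + strand) encodes ZIP8, which imports zinc, manganese and cadmium and is the closest relative of ZIP14. In kidney it was 93.1, 90.1, 105, 115 and 91.4 in CD, 80.3, 91.0, 75.9, 62.6 and 92.6 in WD and 93.9, 98.4, 80.1, 82.4 and 68.4 in WD + CHP. CD held the highest values, with overlap. WD and CD differed by -0.30 (SE 0.11, adjusted p = 0.0944) and WD + CHP and CD by -0.22 (SE 0.11, adjusted p = 0.191), which did not pass. In gastrocnemius it was low, with 17 to 54 counts, at 0.329, 0.814, 0.760, 0.753 and 1.04 in CD, 0.343, 0.581, 0.365, 0.498 and 0.536 in WD and 0.448, 0.477, 0.458, 0.392 and 0.420 in WD + CHP. Of the CD libraries, 4 lay above all libraries of both western diet groups and replicate 1 lay below them. The difference from CD was -0.67 in WD (SE 0.24, adjusted p = 0.0935) and -0.75 in WD + CHP (SE 0.24, adjusted p = 0.0613), neither of which passed with edgeR. Without CD replicate 1 both passed, at -0.85 (adjusted p = 0.0102) and -0.93 (adjusted p = 0.00719), and DESeq2 called WD + CHP vs. CD with all libraries (adjusted p = 0.0447).

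*Slc39a10* (chr1:46807544-46892852, - strand) encodes ZIP10, a plasma membrane importer. In kidney it was 44.2, 40.7, 42.4, 32.8 and 32.7 in CD, 38.3, 37.6, 39.5, 40.4 and 35.8 in WD and 42.0, 41.4, 41.1, 43.9 and 39.1 in WD + CHP, and no difference passed. In gastrocnemius it was 7.62, 9.67, 6.45, 8.18 and 6.78 in CD, 10.6, 9.78, 10.0, 7.74 and 8.36 in WD and 8.93, 7.30, 7.42, 7.71 and 8.07 in WD + CHP. WD had the highest mean there, with overlap. The differences of 0.26 between WD and CD (SE 0.11, adjusted p = 0.144) and -0.24 between WD + CHP and WD (SE 0.11, adjusted p = 0.379) did not pass, and the first passed without CD replicate 2 (0.36, adjusted p = 0.0342). The red blood cell markers of gastrocnemius summed to 2.59 to 12.2 CPM in CD, 3.83 to 49.4 in WD and 4.31 to 20.3 in WD + CHP. They had an r of 0.73 with *Slc39a10*, and their part in the result was not tested.

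*Slc39a4* (chr15:76612383-76617384, - strand) encodes ZIP4, the importer that takes up dietary zinc in the small intestine, and was rare in both tissues. Its kidney CPM was 0.367, 0.285, 0.444, 0.490 and 0.687 in CD, 0.211, 0.371, 0.650, 0.554 and 1.42 in WD and 0.470, 0.192, 0.445, 0.444 and 0.731 in WD + CHP, on 7 to 55 counts. WD replicate 5 was the highest library, and the groups overlapped. The log2 difference was 0.50 between WD and CD (SE 0.41, adjusted p = 0.495) and -0.03 without WD replicate 5. The genes whose kidney log2 CPM was most like that of *Slc39a4* over the 15 libraries were *Itgb4* (r = 0.90), *Ctse* and *Gsdmc3* (0.89 each), *Sprr1a* and *Upk1b* (0.88 each), of which *Upk1b* encodes a uroplakin of the urothelium that lines the renal pelvis. A list of 6 urothelial markers (*Upk1a*, *Upk1b*, *Upk2*, *Upk3a*, *Krt5* and *Krt20*), added after these values were seen, summed to 7.63 to 12.8 CPM in CD, 5.59 to 36.4 in WD and 5.28 to 14.4 in WD + CHP, with the highest value in WD replicate 5. Of the 6, 5 averaged at least 10 counts in kidney, and *Krt20* had 2 to 36. The summed markers and *Slc39a4* had an r of 0.91 over the 15 kidney libraries. *Upk1b*, already seen as a neighbour of *Slc39a4*, is in the sum, so a high r was partly fixed in advance. *Mt1* had an r of 0.62 with the same sum. The part of urothelium in the level of *Slc39a4* was not tested. In gastrocnemius *Slc39a4* had 0 to 6 counts and was not tested.

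**Figure D4:**
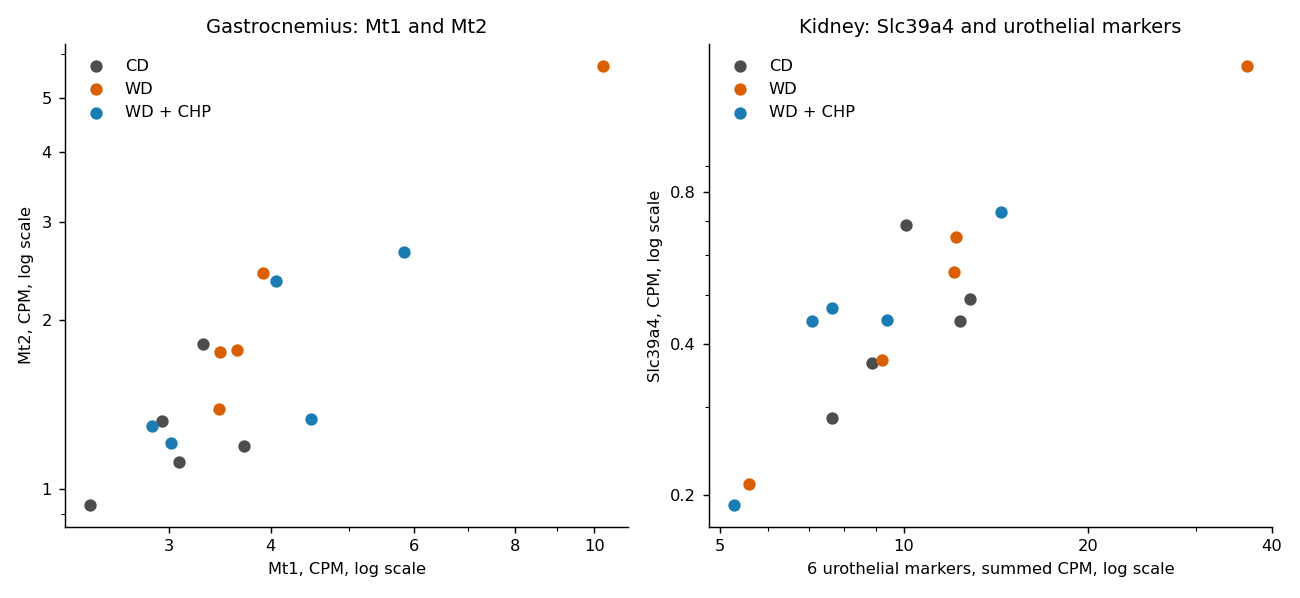
Left, *Mt2* against *Mt1* in the 15 gastrocnemius libraries; right, *Slc39a4* against the summed CPM of 6 urothelial markers in the 15 kidney libraries (log axes, colours are the groups). WD replicate 5 of each tissue is the highest point, at 10.2 and 5.70 CPM of *Mt1* and *Mt2* on the left and at 1.42 CPM of *Slc39a4* on the right.

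Counted by comparison, 1 of 10 members passed between WD and CD in kidney (1 higher, against 9.65% of all genes, 4.62% higher), 0 of 10 between WD + CHP and WD (0.105%) and 4 of 10 between WD + CHP and CD (3 higher and 1 lower, against 12.1%, 6.25% higher and 5.84% lower). In gastrocnemius 0 of 8 passed between WD and CD (8.63%), 0 of 8 between WD + CHP and WD (0.409%) and 1 of 8 between WD + CHP and CD (1 higher, against 9.4%, 4.85% higher). At an unadjusted p under 0.05 the edgeR counts were 4, 2 and 5 of 10 in kidney and 5, 2 and 3 of 8 in gastrocnemius, in the same order, against 24.9%, 11.4% and 27.4% of all genes in kidney and 23.7%, 12.5% and 25.2% in gastrocnemius. Groups without overlap were found for 1, 1 and 1 of 10 members in kidney, where 8.7%, 2.36% and 8.34% of all genes had them, and for 0, 0 and 0 of 8 in gastrocnemius, where 7.84%, 2.83% and 8.75% did. DESeq2 called 1, 0 and 4 members in kidney, where it called 2029, 194 and 2421 of all 17120 genes. In gastrocnemius it called 1, 0 and 2 members, and 1751, 249 and 1882 of all 15419 genes. The 4 calls of kidney WD + CHP vs. CD came to 1 with total count scaling (*Slc39a1*, adjusted p = 0.00571) and 1 when only those groups were fitted (*Slc39a14*, adjusted p = 0.0414). The median log2 fold change of the members was -0.01, 0.04 and 0.04 in kidney and 0.09, -0.09 and 0.13 in gastrocnemius, and that of all genes lay between -0.01 and 0.00 in all 6 comparisons. WD + CHP vs. CD shares its CD libraries with WD vs. CD and its WD + CHP libraries with WD + CHP vs. WD, so its calls are not independent of theirs. The difference between tissues passed for 0 of the 8 members tested in both tissues in each comparison, where 4.13%, 0.347% and 5.78% of all genes passed. At an unadjusted p under 0.05 (edgeR) it was found for 3, 3 and 2 of the 10 members kept in that fit. Of all 18708 genes in that fit, 3306, 2201 and 3836 reached the same line.

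**Figure D5:**
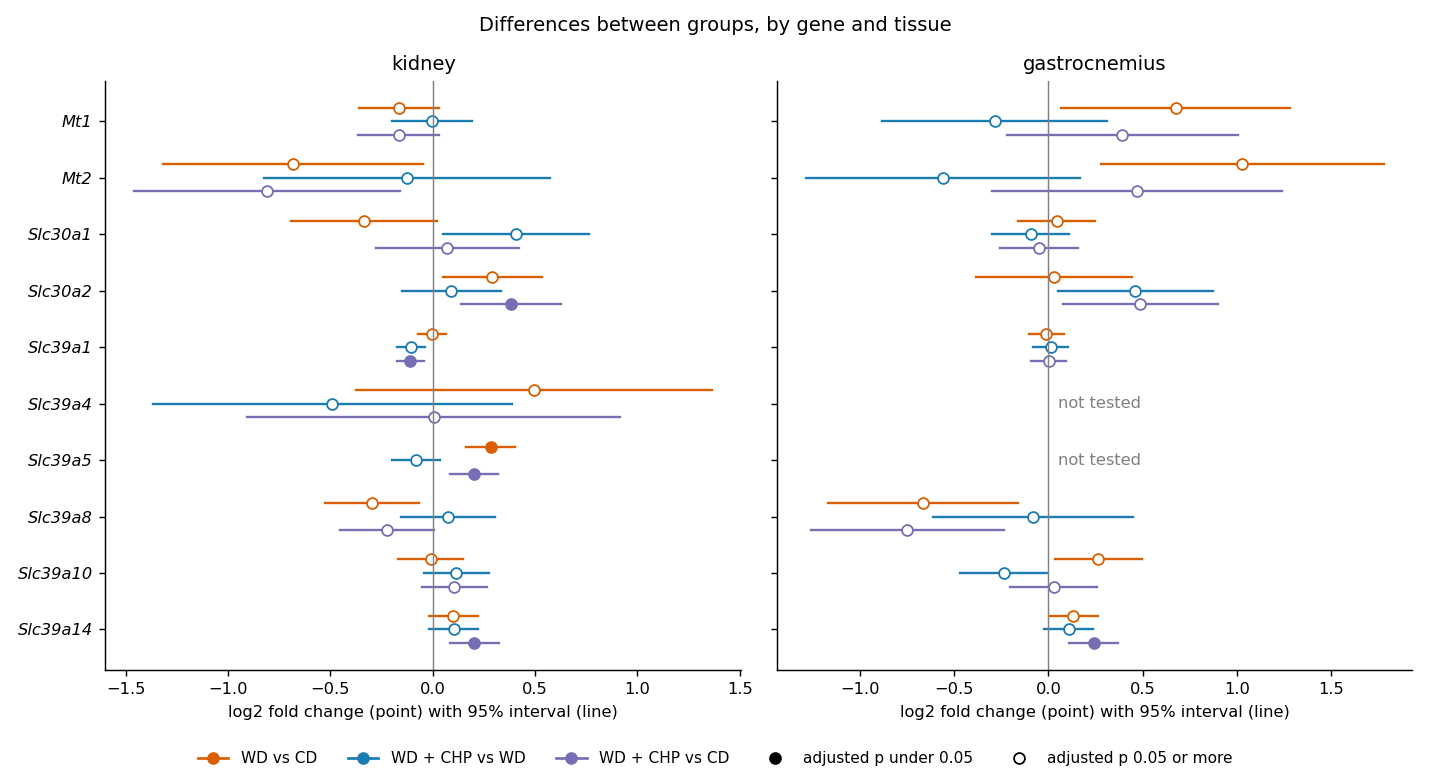
Log2 fold change (point) and 95% interval (line) of each member in the 3 comparisons of each tissue; filled points have an adjusted p under 0.05. The filled points are *Slc39a5* for WD vs. CD in kidney, *Slc30a2*, *Slc39a1*, *Slc39a5* and *Slc39a14* for WD + CHP vs. CD in kidney, and *Slc39a14* for WD + CHP vs. CD in gastrocnemius.

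Of 19 other zinc genes (the other metallothioneins, *Mtf1* and the other ZnT and ZIP genes), 14 were tested in each tissue, and 0 were called by edgeR in any of the 6 diet and CHP comparisons, with 0 to 3 per comparison at an unadjusted p under 0.05. Between 0.105% and 12.1% of all genes were called in these comparisons, so 0 of 14 is near the background. Between the tissues on CD 11 of the 14 were called, 6 higher and 5 lower in kidney, where 88.1% of all genes were called. Of 17 copper, iron and manganese genes, 16 were tested in kidney and 15 in gastrocnemius. In kidney 2 of 16 were called between WD and CD (9.65% of all genes) and 4 of 16 between WD + CHP and CD (12.1%), and in gastrocnemius 1 of 15 (8.63%) and 2 of 15 (9.4%). In kidney, *Tfrc*, the transferrin receptor that takes up iron, rose in WD by 0.72 (SE 0.14, adjusted p = 0.00525), and *Slc40a1*, the iron exporter ferroportin, fell by 0.57 (SE 0.11, adjusted p = 0.00497). Between WD + CHP and CD both were called again in the same directions (0.76 and -0.51), together with *Atp7a*, a copper exporter, at 0.59 (SE 0.11, adjusted p = 0.00425) and *Ireb2*, an iron-responsive regulator, at 0.15 (SE 0.04, adjusted p = 0.0278). In gastrocnemius *Slc11a2*, an iron importer, fell by 0.23 in WD (SE 0.07, adjusted p = 0.0378), and between WD + CHP and CD *Cp*, the copper protein ceruloplasmin, fell by 0.47 (SE 0.09, adjusted p = 0.00557) and *Slc40a1* rose by 0.30 (SE 0.07, adjusted p = 0.0148). No gene of this list was called between WD + CHP and WD by edgeR in either tissue, with 3 in each at an unadjusted p under 0.05.

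Glucocorticoids are, besides metals, oxidative stress and cytokines, among the known inducers of *Mt1* and *Mt2*, so 14 glucocorticoid-responsive genes were counted beside them. In kidney WD vs. CD 4 of 14 were called by edgeR, 3 higher and 1 lower, where 9.65% of all genes were called. *Sgk1*, a kinase that raises sodium uptake, rose by 0.99 (SE 0.16, adjusted p = 0.00115), *Fkbp5*, a chaperone of the receptor, by 0.37 (SE 0.10, adjusted p = 0.0323) and *Errfi1*, a brake on EGFR signalling, by 0.29 (SE 0.09, adjusted p = 0.0461), while *Pdk4*, which shifts fuel use from glucose to fat and also responds to fasting and insulin, fell by 2.10 (SE 0.25, adjusted p = 1.57e-04). Between WD + CHP and CD the same 4 genes were called in the same directions (12.1% of all genes called), with log2 differences of 0.64, 0.46, 0.29 and -1.53. In gastrocnemius 1 of 14 was called between WD and CD (8.63% of all genes) and 2 of 14 between WD + CHP and CD (9.4%). *Pdk4* fell in WD by 0.76 (SE 0.15, adjusted p = 0.00413), and *Pdk4* and *Klf9* fell between WD + CHP and CD by 0.58 and 0.38 (adjusted p = 0.0198 and 0.0269). Between WD + CHP and WD edgeR called 0 of 14 in each tissue, with 4 in kidney and 0 in gastrocnemius at an unadjusted p under 0.05. In kidney the median log2 fold change of this list was 0.32 for WD vs. CD, -0.06 for WD + CHP vs. WD and 0.25 for WD + CHP vs. CD. In gastrocnemius it was 0.23, -0.17 and 0.02 in the same order. The number of the 14 genes above 0 was 10, 6 and 12 in kidney and 11, 2 and 9 in gastrocnemius.

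Over the 15 libraries of a tissue, which share groups and scaling, log2 CPM of *Mt1* and *Mt2* had an r of 0.89 in gastrocnemius (0.87 after subtracting group means) and 0.67 in kidney (0.55). In kidney *Slc30a2* and *Slc39a8* went in opposite directions (r = -0.77, and -0.69 after subtracting group means), and the summed proximal tubule markers had an r of -0.71 with *Slc39a8*. The summed macrophage markers had an r of 0.76 with *Slc39a8* and -0.46 with *Slc30a2*. *Mt1* and *Slc39a10* had an r of -0.64 in kidney. Likeness was taken among genes with a mean log2 CPM of at least 1, without a test. The gene most like *Mt2* in gastrocnemius was *Nfkbia*, the inhibitor of NF-κB and one of the glucocorticoid-responsive genes counted above (r = 0.97), followed by *Gsta4*, a glutathione transferase (0.90), and *Mt1*. *Nfkbia* was 12.5 to 16.1 in CD, 22.7 in WD replicate 5, 14.2 to 17.6 in the other WD libraries and 12.9 to 17.1 in WD + CHP. The gene most like *Mt1* in gastrocnemius was *Ly6a* (r = 0.93). In kidney, *Tmem220* was most like *Mt1* (r = 0.88) and, after subtracting group means, *Krt7* and *Itgb4* (0.88 and 0.87). *Dlat*, a subunit of pyruvate dehydrogenase, was most like *Slc39a14* in kidney (r = 0.85), *Serpinh1*, a collagen chaperone, in gastrocnemius (0.89), *Tmem52* and *Aspdh* most like *Slc39a5* in kidney (0.89 each), *Arhgap10* most like *Slc30a2* (0.92) and *Smg9* most like *Slc39a1* (0.85).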

How the data were processed

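RNA-seq was carried out on kidney and gastrocnemius, 15 libraries each. The deposited values were raw counts per gene made by the authors (polyA libraries, BGISEQ-500, SOAPnuke, STAR 2.7.3a, with GRCm38 and mm10 in the submitters' processing notes), and the counting tool, annotation and strand setting are not given in the sources used here. The labels name frozen liver as the material of all 30 libraries, whereas the methods of the study name kidney and gastrocnemius, and the marker genes were those of kidney and muscle. The labels and the methods also differ in the kit used for gastrocnemius. Each column was matched to its sample by name, and 0 columns were without a sample. Groups came from the labels.

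Counts were fitted per tissue over the 3 groups with edgeR 4.0.16 (R 4.3.3) using TMM scaling, filterByExpr with a minimum count of 10 and the quasi-likelihood test, and p-values were adjusted by Benjamini-Hochberg over all genes kept, with a threshold of 0.05. The tissues were compared in the 10 CD libraries, and differences between tissues in the response in 1 fit of 30 libraries. Both fits took the libraries as independent, although some mice gave both tissues. Alternatives used limma-voom (limma 3.58.1), DESeq2 1.42.0, other scalings, filters and thresholds, length and GC offsets, the replicate number as a block, an adipocyte score as a covariate, only the groups compared, and leaving out each library. Each script that tests many genes was tested on simulated data. P-values measure the spread between libraries, each from 1 mouse. Exon lengths and positions came from GENCODE M21, which held 54809 of the kidney and 55227 of the gastrocnemius identifiers. Promoters came from RefSeq.

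The members and gene lists were chosen with earlier results of these data known. All members are named whatever their values. Genes of the other lists are named where called, at most 6 per comparison. The genes most like a member are those with the highest Pearson correlation of log2 CPM (prior count 2). The urothelial list, and the neighbours of Slc39a4, were chosen after the values were seen. Summed marker CPM, log2 CPM and RPKM were computed from the deposited counts.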

Additional observations from a re-analysis of the deposited data

Results flagged for a closer look

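Within each group of 5 libraries, the highest or lowest value was called separate where its gap to the nearest library, as a share of the range of the group, was above 0.71. Chance gives this for about 1 in 20 groups, so 2.7 of the 54 groups searched, and 6 were found. Mt1 in gastrocnemius was 10.2 CPM (535 counts) in WD replicate 5 against 3.45 to 3.91 in the other WD libraries (gap 0.932 of the range), and Mt2 was 5.70 CPM (298 counts) in the same library against 1.39 to 2.43 (0.758). Mt2 in kidney was 0.262 CPM (10 counts) in CD replicate 1 against 0.483 to 0.571 (0.718). Slc30a1 in kidney was 1.67 CPM (61 counts) in WD + CHP replicate 2 against 1.04 to 1.11 (0.897). Slc39a1 in kidney was 78.4 CPM (3021 counts) in CD replicate 2 against 73.7 to 74.7 (0.787), and Slc39a14 was 47.3 CPM (1806 counts) in CD replicate 1 against 42.3 to 43.7 (0.714). No response of a member differed between tissues past the threshold.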

How the results depend on the processing

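The number of members called rose from 1 to 2 in kidney WD vs. CD at an adjusted p under 0.1 and with the replicate block joined to the length and GC correction (Mt1, adjusted p = 0.0317 by edgeR), fell from 4 to 1 in kidney WD + CHP vs. CD with total count scaling and with only the groups compared, and without 1 library ranged from 0 to 3 there. In gastrocnemius WD vs. CD it was 2 at an adjusted p under 0.1, 1 with DESeq2 and 0 to 1 without 1 library, and in WD + CHP vs. CD it was 2 at an adjusted p under 0.1, 2 with DESeq2, 0 with the adipocyte covariate and 0 to 2 without 1 library. For the difference between tissues in WD vs. CD it was 1 with total count scaling and 0 to 1 without 1 library.

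Slc39a4 in kidney WD + CHP vs. CD turned to -0.047 with limma-voom, to -0.048 with total count scaling and to -0.0031 with the replicate block, and ranged from -0.23 to 0.21 without 1 library. Mt1 in kidney WD + CHP vs. WD turned to 0.00076 with the replicate block and to 0.028 with the length and GC correction and 0.030 with both. With the adipocyte covariate in gastrocnemius, Mt1 turned to -0.32 and Slc39a14 to -0.026 in WD vs. CD, and Mt1 to 0.39 and Mt2 to 0.11 in WD + CHP vs. WD. The cause was not tested. Without 1 library, kidney WD + CHP vs. WD ranged from -0.062 to 0.054 for Mt1, -0.33 to 0.18 for Mt2 and -0.72 to 0.039 for Slc39a4, kidney WD vs. CD from -0.026 to 0.72 for Slc39a4, and gastrocnemius WD + CHP vs. WD from -0.45 to 0.16 for Mt1. A further 50 results were members with an unadjusted p of at least 0.05 within a tissue, other than Mt1, Mt2 and Slc39a4, and differences between tissues other than those of Mt1 and Mt2 in WD vs. CD. Of their 1128 fits, 78 had the other sign and 0 gained or lost a call.

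Same-numbered libraries of different groups had deviations correlated at -0.09 to 0.14 in kidney and -0.13 to 0.15 in gastrocnemius, above 0.1 in 2 of 15 pairs in each, so the numbers were not taken to pair the mice. With the replicate block, kidney WD + CHP vs. CD still had 4 members called, with Mt1 (adjusted p = 0.0454) and Mt2 (adjusted p = 0.0314) in place of Slc30a2 (0.0734) and Slc39a1 (0.0580), by edgeR. Joined to the length and GC correction, the block there called Mt2 (adjusted p = 0.0367) and not Mt1 (0.0584) or Slc39a1 (0.107). Over all genes, kidney WD + CHP vs. WD gave 18 calls, and 75 at an adjusted p under 0.1, 194 with DESeq2, 37 without the filter, 70 with the block, 7 with the length and GC correction and 0 with only the groups compared. Leaving out 1 library gave 0 (WD replicate 1, 4 or 5, WD + CHP replicate 3 or 4), 7 (WD + CHP replicate 2), 16 (WD replicate 3), 45 and 47 (WD + CHP replicates 1 and 5) or 97 (WD replicate 2). Gastrocnemius WD + CHP vs. WD gave 63, and 249 with DESeq2, 40 without the filter and 0 with the adipocyte covariate, and it gave 12 to 27 when WD + CHP replicate 1, 3 or 5, or replicate 1 or 2 of WD, was left out. Kidney WD + CHP vs. CD gave 1202 to 1294 without CD replicate 5 or WD + CHP replicate 3 or 4, and gastrocnemius WD + CHP vs. CD gave 930 without CD replicate 3 and 873 without WD + CHP replicate 3. At an adjusted p under 0.1, the 1652, 2070, 1330 and 1450 calls against CD became 2647, 3232, 2193 and 2429. With the adipocyte covariate, at an adjusted p under 0.05, gastrocnemius had 0 calls in WD vs. CD and 694 in WD + CHP vs. CD. The difference between tissues went from 772 to 1372 in WD vs. CD and from 65 to 99 in WD + CHP vs. WD with total count scaling, and the latter ranged from 19 to 145 without 1 library (kidney WD replicate 1 and WD + CHP replicate 4, gastrocnemius WD replicates 1, 4 and 5 and WD + CHP replicates 3 and 5 moved it most). Mt2 and Slc30a1 in kidney, and Slc39a4, rest on at most 61 counts per library, which limits their precision.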
